A study of Homo sapiens with 29 samples.

Results

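ZNF148, a zinc finger transcription factor, was knocked down in human LHCN-M2 myoblasts, and the transcriptome was read 48 h after transfection in growth media. The comparison comprised 6 of the 29 arrays of the series, chosen by their labels: 3 arrays of cells given 20 nM nontargeting siRNA (siControl, replicates 1 to 3) and 3 arrays of cells given 20 nM siRNA against ZNF148 (siZNF148, replicates 1 to 3). Cells of both groups were confluent and stayed in growth media, so neither group was given the serum-poor media that is used to make myoblasts differentiate. LHCN-M2 is an immortalized human skeletal muscle line that carries telomerase and CDK4 and comes from 1 clone picked for how well it differentiates, and all arrays hold this clone. Cy3-labelled RNA of each culture was hybridized to a 1-colour Agilent SurePrint G3 Human array. The rest of the series held both siRNA groups at 24 h (subconfluent) and 96 h in growth media and at 48 h and 96 h in differentiation media. The comparison asks what loss of ZNF148 does to gene expression while the cells are still fed for growth.

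Myoblasts are muscle precursors that divide until they leave the cell cycle, express muscle genes and fuse into multinucleated fibres. The bHLH factors MYF5 and MYOD1 mark the dividing myoblast, and MYOG together with the MEF2 factors turns on the genes of the sarcomere, the unit of contraction made of myosin thick filaments, actin thin filaments and the Z-discs that anchor them. ZNF148, also called ZBP-89, is a Krüppel-type factor that binds G-rich DNA and is known as an activator at some genes and a repressor at others. Levels are given as normalised log2 signal, in which 1 unit is a doubling, and changes as the log2 difference of siZNF148 minus siControl. A gene was called changed at an adjusted p under 0.05 in limma with a change of more than 2-fold.

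The RNA had the markers of myoblasts in both groups. Of 8 myoblast identity markers, DES, the muscle intermediate filament protein desmin, stood at a log2 signal of at least 15.45 on every array, and MYOD1 at 15.43 or more. Of the 22 tested markers of other cell types, 6 passed the threshold: CLDN5, CFD and ITGAM higher, and KDR, SOX9 and RUNX2 lower, with -0.89 on another RUNX2 probe. Over all genes tested 11.7% were higher and 12.2% lower, which is near the shares of these markers. Of these markers CD3E and ITGAM were above background on 1 array of each group, and COL2A1, ACAN, CDH1, EPCAM and ADIPOQ on none. Markers above background on all siControl arrays included KDR, CLDN5, PECAM1, VWF and CDH5 of endothelium, RUNX2 and SOX9 of cartilage and bone, PTPRC of blood cells and KRT8 and KRT18 of epithelium, all named after their values were seen. The part of such cells in the results was not tested. The share of probes well above background ranged from 45% to 51.7% over the 6 arrays. The 6 arrays lay on 3 slides, each with 1 array of both groups.

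siControl replicate 1 stood apart from the other siControl arrays and lay towards siZNF148. Its place was measured for the genes called in a fit that did not use it, as the distance from the mean of siControl replicates 2 and 3, set to 0, to the mean of siZNF148, set to 1. Over 4964 genes the median place on the log2 scale was 0.335, with quartiles of 0.215 and 0.499. Genes that were higher in siZNF148 had a median place of 0.478, and genes that were lower had a median of 0.234. On the linear scale of signal the same array stood at a median of 0.320, at 0.287 for the higher genes and at 0.362 for the lower genes. The lists that were far apart on the log2 scale were close together on the linear scale: thin filament genes had a median of 0.8 on log2 and 0.348 on linear values, and mitosis genes 0.160 and 0.353. For siControl replicate 2 against replicate 3 the median place was 0.011 on log2 and 0.004 on linear values. The fit that chose the genes used replicates 2 and 3 but not replicate 1. The places of replicates 1 and 2 are therefore not like for like. The origin of the position of siControl replicate 1 was not tested. For many rises and list medians, the value without this array stands in brackets after the log2 value with all arrays. A rise or median that is printed without brackets may also depend on this array.

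**Figure D1:**
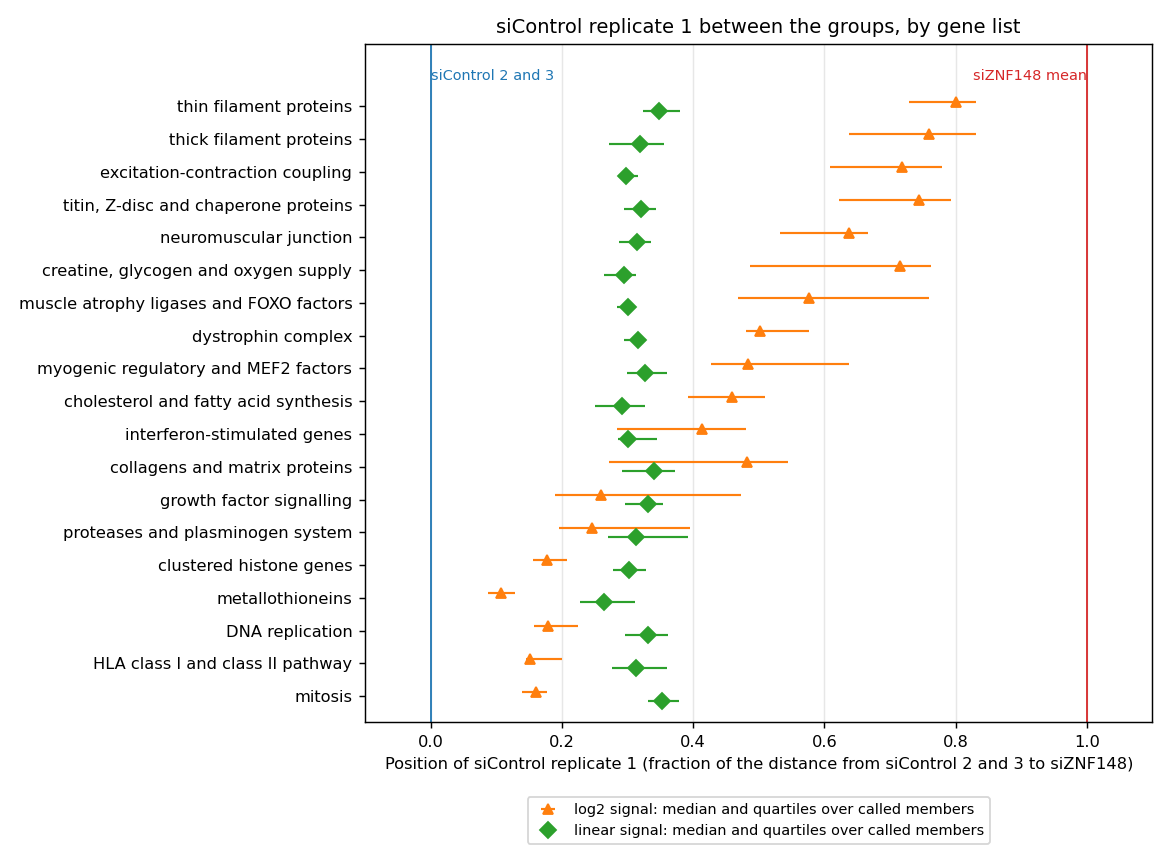
Place of siControl replicate 1 between the other siControl arrays (0) and siZNF148 (1), by gene list, on the log2 scale and on the linear scale of signal; points are medians and bars the quartiles over the genes of a list called without that array. On log2 values the thick and thin filament lists lie at 0.759 and 0.8 and the mitosis list at 0.160, while on linear values the 3 lists lie at 0.319, 0.348 and 0.353.

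ZNF148 itself was lower in all siZNF148 arrays. Its log2 signal was 8.51, 8.85 and 9.19 in siControl replicates 1, 2 and 3, and 6.91, 6.90 and 6.53 in siZNF148 replicates 1, 2 and 3. The groups did not overlap, and the lowest siControl array was replicate 1. ZNF148 fell by 2.07 on the log2 scale (SE 0.14), a 4.21-fold change, with an adjusted p of 7.83e-11 in limma, and by 2.24 without siControl replicate 1. A separate ZNF148 probe gave a log2 difference of -2.27. Within the 3 slides the log2 difference was -2.32, -1.61 and -2.28, with the smallest on the slide that held siControl replicate 1. Among 22 tested relatives and factors that bind the same kind of G-rich boxes, 2 were higher and 5 lower, ZNF148 included. Of all genes 11.7% were higher and 12.2% lower. ZNF281, the closest relative, had a log2 difference of 0.11 with an adjusted p of 0.365 in limma, and SP1 and SP3, which compete for such boxes, had -0.36 and -0.87, both under the 2-fold limit. KLF5, a Krüppel-like factor, rose by 2.83 on the log2 scale, and by 3.48 without siControl replicate 1.

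Promoters of 2 muscle genes and 4 genes of cell division are shown because muscle genes and cell cycle genes are known to be read through different short motifs. RefSeq promoter windows were at hand for 14097 of the 18398 genes tested. Each sequence is the 200 bases before the start site, read 5′ to 3′ on the strand of the gene, from GRCh38.p14. For the myogenic factor MYOG (chr1:203086013-203086212, minus strand) and the muscle creatine kinase CKM (chr19:45322876-45323075, minus strand), capitals mark the E-box CANNTG, which bHLH factors such as MYOD1 bind, and the G-rich letters GGGGNGGGG.
MYOG: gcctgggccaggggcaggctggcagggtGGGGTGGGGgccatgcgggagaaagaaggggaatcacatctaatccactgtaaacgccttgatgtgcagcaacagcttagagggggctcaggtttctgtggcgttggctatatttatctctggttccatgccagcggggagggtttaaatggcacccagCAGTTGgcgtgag
CKM: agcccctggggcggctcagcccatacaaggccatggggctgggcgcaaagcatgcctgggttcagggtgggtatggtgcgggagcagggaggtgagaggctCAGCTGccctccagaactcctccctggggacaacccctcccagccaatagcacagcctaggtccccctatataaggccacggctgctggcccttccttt
The 4 genes of cell division are CCNB1 (chr5:69166950-69167149, plus strand), TOP2A (chr17:40417897-40418096, minus strand), MKI67 (chr10:128126424-128126623, minus strand) and CCNB2 (chr15:59104946-59105145, plus strand). Here capitals mark the CCAAT box and the CHR element TTTGAA on either strand. Both motifs are known from promoters of mitotic genes. CCNB2 was chosen after its values were seen.
CCNB1: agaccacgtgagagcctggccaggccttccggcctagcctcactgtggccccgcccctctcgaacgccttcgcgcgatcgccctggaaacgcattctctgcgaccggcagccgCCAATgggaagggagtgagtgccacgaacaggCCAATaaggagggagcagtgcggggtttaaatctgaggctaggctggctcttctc
TOP2A: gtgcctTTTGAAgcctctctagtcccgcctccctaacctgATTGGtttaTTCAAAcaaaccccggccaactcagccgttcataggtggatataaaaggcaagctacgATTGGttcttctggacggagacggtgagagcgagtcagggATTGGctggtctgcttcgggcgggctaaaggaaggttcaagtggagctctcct
MKI67: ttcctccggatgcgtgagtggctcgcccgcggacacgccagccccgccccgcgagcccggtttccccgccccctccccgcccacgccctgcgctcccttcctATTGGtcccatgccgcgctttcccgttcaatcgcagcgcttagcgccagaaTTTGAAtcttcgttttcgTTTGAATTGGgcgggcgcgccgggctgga
CCNB2: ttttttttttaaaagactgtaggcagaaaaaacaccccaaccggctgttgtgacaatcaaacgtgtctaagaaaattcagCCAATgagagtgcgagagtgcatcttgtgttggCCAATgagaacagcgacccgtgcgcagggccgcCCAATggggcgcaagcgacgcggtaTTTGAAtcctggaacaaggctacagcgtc
In MYOG the E-box began 13 bases upstream of the start, and in CKM 99 bases upstream. For CCNB1 the CCAAT box was found at 87 and 55 bases, with no CHR letters in the stretch. Both MKI67 and CCNB2 had CHR letters 29 bases upstream, which in MKI67 shared letters with a CCAAT box.

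Over the whole windows of 300 bases around the start, searched on both strands, TTTGAA was in 56.6% of 53 windows of the mitosis genes, against 11.9% of the windows of all genes tested, 15.2% of all windows and 2% of the windows of DNA replication genes. CCAAT was in 75.5% of the mitosis windows and in 62% of the DNA replication windows, against 34.6% of the windows of all genes tested. In the 105 windows of the contractile and calcium handling genes the E-box was in 75.2%, against 64.4% of the windows of all genes tested and 68.7% of all windows. TATTTATA, the core letters of a MEF2 site, were in 5.71% of the contractile and calcium handling windows and in 1.03% of those of all genes tested. GGGGNGGGG was in 33.5% of the windows of genes called higher and in 34.3% of those called lower, against 32.8% of the windows of all genes tested. Those letters were chosen as the G-rich kind of box, and a match is a description of letters, not a bound site.

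**Figure D2:**
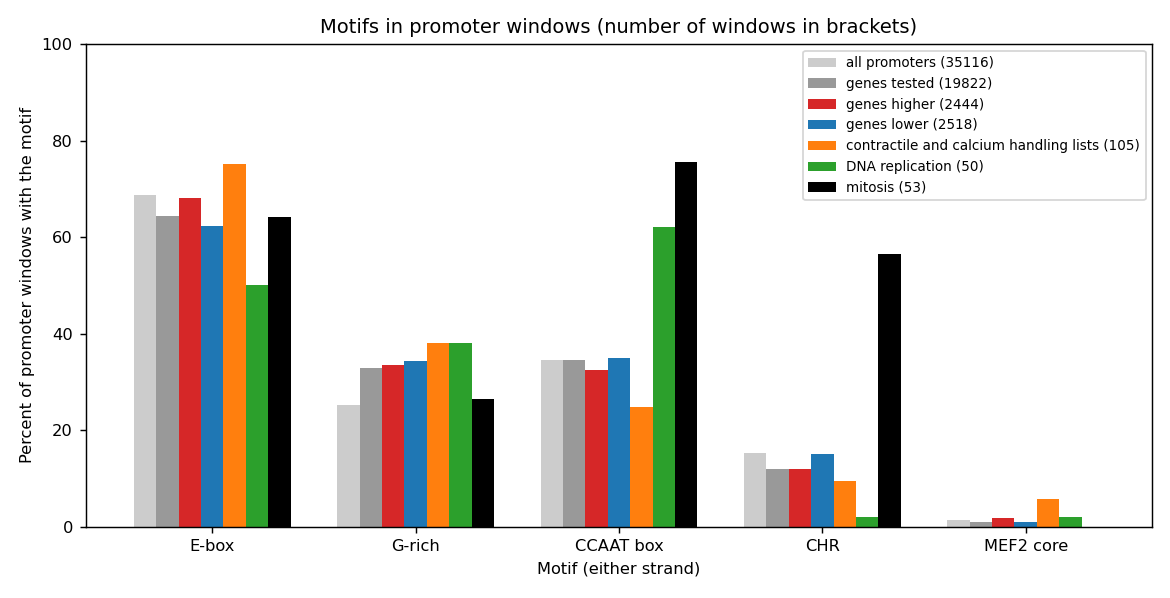
Percent of RefSeq promoter windows that hold each motif on either strand, for all genes tested, genes called higher or lower at 48 h, and 3 groups of lists. The mitosis windows hold TTTGAA in 56.6% and CCAAT in 75.5%. The share of the G-rich letters lies between 26.4% and 38.1% in the genes tested, the genes called and the 3 groups of lists. It is 25.2% in the windows of all promoters.

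At 48 h, 2153 of 18398 genes (11.7%) were higher and 2247 (12.2%) were lower in siZNF148. With siControl replicate 1 left out, 2381 genes (12.9%) passed as higher and 2587 (14.1%) as lower. Of the 4400 genes called with all arrays, 4338 were called in the same direction without that array and none in the opposite direction. Separate ranges for siControl and siZNF148 were found for 62.9% of 18343 genes, and for 69.4% without siControl replicate 1, so that a lack of overlap is common here. The median log2 difference over all genes tested was -0.05. Counts of genes called in a list are to be read against the 11.7% higher and 12.2% lower of all genes. The labels call the replicates biological but do not say how the cultures were separated. Unless another fit is named, limma p-values use a spread per probe that is pooled over all groups of the series, other times and media included. They do not measure the spread of the compared arrays alone. This holds with and without siControl replicate 1.

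Among genes above background on every array whose groups did not overlap, the 10 largest rises were in genes of striated muscle. CKM, the muscle creatine kinase that buffers ATP, had log2 signals of 16.03, 5.83 and 5.91 in siControl and 17.27, 17.31 and 17.37 in siZNF148. For CKM siControl replicate 1 thus had a place of 0.887 towards siZNF148 on log2 values and of 0.408 on linear values. The rise of CKM was 8.06 (SE 1.52; adjusted p = 0.00013 in limma), and 11.45 without siControl replicate 1 (adjusted p = 2.16e-17 in limma). The other 9 of these rises were in TNNC2, MYL1, APOBEC2, SMPX, MYH7, TNNI2, MYH3, MYL4 and TNNT3, with log2 differences from 7.28 down to 6.55. APOBEC2, a muscle member of the deaminase family, and SMPX, a small protein of striated muscle, are the members that are not part of the filaments. The same 10 genes led without siControl replicate 1, with log2 differences from 11.45 for CKM down to 9.10 for TNNT3. With that array kept, none of the 10 was called in a fit of only the 6 arrays. In the methods' t-test none of them was called either, with or without adjustment.

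**Figure D3:**
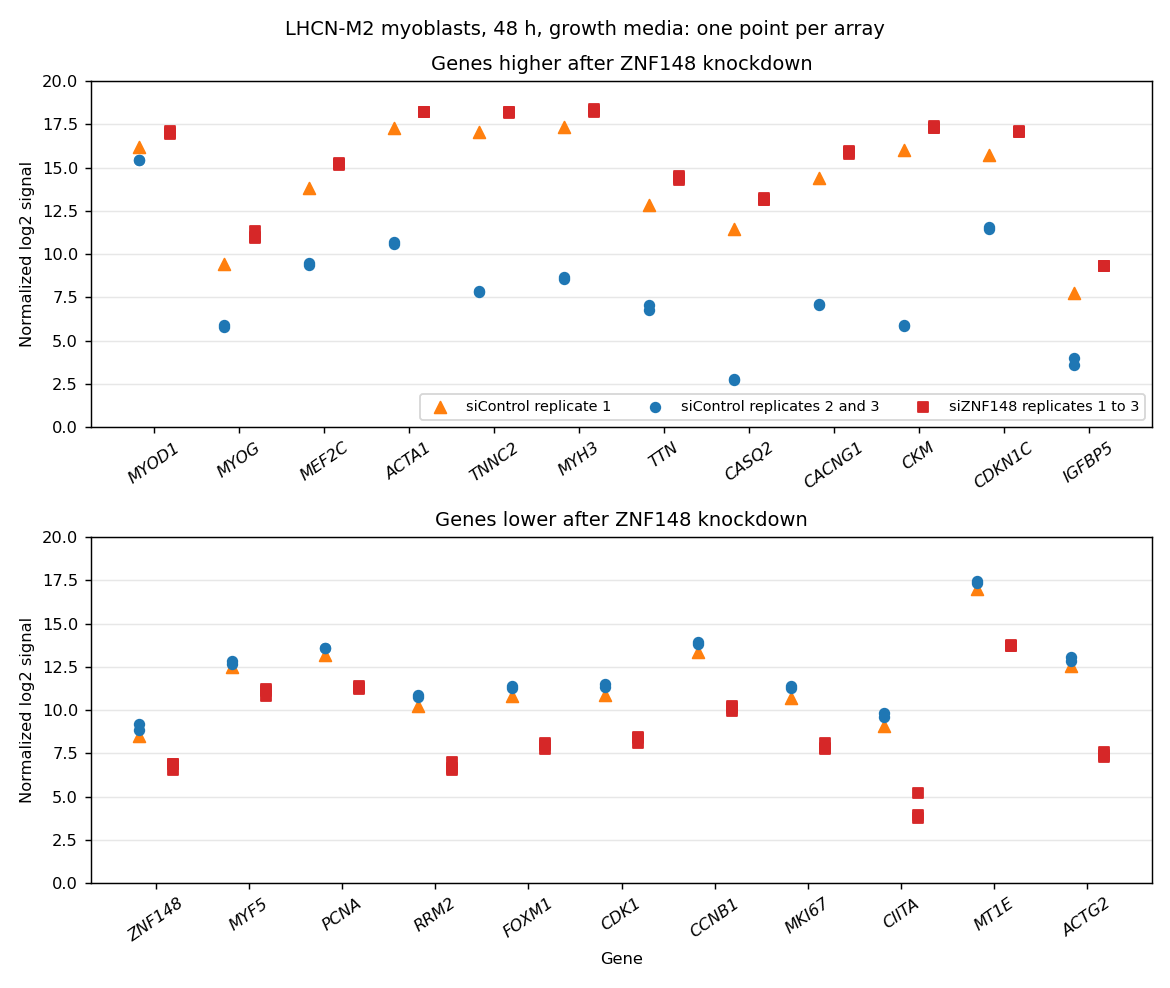
Normalised log2 signal of named genes on each of the 6 arrays, with siControl replicate 1 marked apart from siControl replicates 2 and 3; each point is 1 array. On this log2 scale siControl replicate 1 lies nearer to siZNF148 for CKM, TNNC2 and MYH3, and nearer to the other siControl arrays for MKI67 and PCNA.

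Among the factors that drive myogenesis, 4 of 8 rose and MYF5 fell. A fit of only the 6 arrays also called 4 higher, and 5 without siControl replicate 1. With the replicate number as a block, or in the methods' t-test after adjustment, 2 were called higher. MYOG and MEF2C were not called in those 2 settings. MYOD1, the bHLH factor that commits cells to muscle, had log2 signals of 16.17, 15.43 and 15.46 in siControl and 17.00, 17.08 and 16.94 in siZNF148. It rose by 1.32 (SE 0.12; adjusted p = 9.07e-09 in limma), a 2.50-fold change, and siControl replicate 1 was the highest of its group. Without that array MYOD1 rose by 1.56. MYOG, the bHLH factor of terminal differentiation, read 9.42, 5.92 and 5.76 in siControl and 10.91, 11.01 and 11.34 in siZNF148. The groups did not overlap, and MYOG rose by 4.06 (adjusted p = 8.7e-06 in limma) or, without siControl replicate 1, by 5.25. MEF2C, a MADS-box partner of the bHLH factors, read 13.82, 9.39 and 9.46 against 15.28, 15.15 and 15.18. MEF2C rose by 4.32 with all arrays (adjusted p = 1.17e-05 in limma) and by 5.78 without siControl replicate 1.

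MEF2A, another member of the MEF2 family, rose by 1.29 (1.55). MEF2D had a log2 difference of 0.99, under the 2-fold limit, and passed without siControl replicate 1 at 1.15, but its other probe had -0.05. MYF5, the earliest of the bHLH factors in myoblasts, went the other way, with 12.48, 12.64 and 12.84 in siControl and 11.08, 11.21 and 10.79 in siZNF148. It fell by 1.63 (adjusted p = 3.58e-06 in limma), and its groups did not overlap. MYF6, the factor of mature fibres, had a log2 difference of 0.68 and was not called. Of 16 tested progenitor factors 3 rose and none fell, against 11.7% and 12.2% of all genes, and 2, MEOX1 and PAX3, named after their values were seen, were lower without siControl replicate 1. SIX4 was close to the limit at 1.01, MYCL had 2.07 (2.51) and, on its other probe, 0.44, while PAX7, the satellite cell factor, had a log2 difference of 0.01.

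The inhibitors and partners of the bHLH factors moved both ways, with 8 of 19 higher and 5 lower. HES6, which favours myogenesis, read 15.36, 10.94 and 10.92 in siControl and 16.58, 16.66 and 16.65 in siZNF148, and rose by 4.22 (5.70). HES6 was not called in a fit of only the 6 arrays or in the methods' t-test after adjustment. MSC, a bHLH repressor of MYOD1 activity, rose by 1.84 (2.25), and HEYL, a Notch target, by 1.00. HEYL was close to the limit and lost its call in 5 of the alternative settings. ID1, which keeps bHLH factors from DNA, fell by 1.34, and ID3 of the same family rose by 1.75. BHLHE41 had the largest fall of the list, 2.32. The median log2 difference of the list was 0.92, against -0.05 for all genes tested.

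Thick filament genes were higher almost throughout. Of 26 tested genes 22 rose and none fell, with a median log2 difference of 4.35 (5.65), against 11.7% of all genes higher and a median of -0.05. The median signal of the list was 9.69, 5.65 and 5.56 in siControl replicates 1, 2 and 3, and 11.71, 11.42 and 11.59 in siZNF148. siControl replicate 1 thus stood between the groups for the list as a whole. MYH3, the embryonic myosin heavy chain, read 17.35, 8.55 and 8.70 against 18.38, 18.21 and 18.26, and rose by 6.75 (SE 1.32; adjusted p = 0.000195 in limma), and by 9.66 without siControl replicate 1. MYH7, the slow and cardiac heavy chain, rose by 6.82 (9.47), MYH8, the perinatal chain, by 6.15 (8.49), and MYH2, a fast chain above background on 2 of 3 siControl arrays, by 4.63 (6.00). MYL1, a fast essential light chain, had the largest rise of the list, 7.16, and a larger value without siControl replicate 1. MYH1, a fast adult chain above background on 1 of 3 siControl arrays, rose by 1.5 (adjusted p = 0.0139 in limma), and did not pass without siControl replicate 1 (log2 difference 1.29, adjusted p = 0.059).

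Of 17 tested thin filament genes 15 rose and none fell, with a median of 5.26 (7.13). The list medians were 14.68, 7.84 and 7.78 in siControl and 16.17, 16.15 and 16.31 in siZNF148. ACTA1, the skeletal muscle actin, read 17.31, 10.7 and 10.6 in siControl and 18.23, 18.19 and 18.23 in siZNF148, so its siZNF148 arrays lay close together. ACTA1 rose by 5.34 (adjusted p = 0.000161 in limma), and by 7.56 without siControl replicate 1. TNNC2, the calcium sensor of fast fibres, read 17.06, 7.84 and 7.78 against 18.18, 18.14 and 18.19 and rose by 7.28 (10.36). ACTC1, the cardiac actin of early fibres, rose by 5.37 (7.25), NEB, the thin filament ruler nebulin, by 5.98 (8.17), and TNNI1, the slow inhibitory troponin, by 5.26 (7.13). The tropomyosins TPM2 and TPM3, named after their values were seen, were the members that did not pass, with log2 differences of 0.11 and -0.17. Their probes disagreed, with -1.97 on another TPM2 probe and between -0.12 and 3.75 on other TPM3 probes.

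In the list of titin, Z-disc and chaperone genes 31 of 37 rose and none fell, with a median of 4.24 (5.58). TTN, the giant spring protein titin, read 12.82, 6.74 and 7.05 in siControl and 14.38, 14.30 and 14.50 in siZNF148. TTN rose by 5.52 (7.49; adjusted p = 2.11e-05 in limma), and its other probes had log2 differences between 4.43 and 6.83. DES read 17.53, 15.68 and 15.45 against 18.32, 18.40 and 18.40 and rose by 2.15 (2.81). UNC45B, the chaperone that folds muscle myosin, was above background on 1 of 3 siControl arrays and rose by 6.41 (8.81), TCAP, which caps titin at the Z-disc, by 4.24 (5.58), and LDB3, a Z-disc scaffold, by 4.23 (5.55). KLHL40, a Kelch protein that stabilises thin filaments, was above background on 1 of 3 siControl arrays and on all siZNF148 arrays, and rose by 8.53 (11.97). Without siControl replicate 1 KLHL40 was not well above background in siControl and was at least 938-fold higher in siZNF148.

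Genes that couple excitation to contraction rose in 24 of 27 cases, with a median of 4.29 (5.58) and no fall. RYR1, the calcium release channel of the sarcoplasmic reticulum, read 10.05, 5.74 and 5.20 in siControl and 11.67, 11.70 and 12.03 in siZNF148, and rose by 4.80 (6.33; adjusted p = 2.58e-05 in limma). CACNA1S, the voltage sensor that opens RYR1, was above background on 1 of 3 siControl arrays and rose by 4.29 (5.58), STAC3, an adaptor of that pair, by 3.85 (5.02), and ATP2A1, the calcium pump of fast fibres, by 5.49 (7.36). CASQ2, a calcium store protein, read 11.47, 2.71 and 2.79 against 13.14, 13.10 and 13.22. The 2 low siControl arrays were not well above background, and without siControl replicate 1 CASQ2 was at least 439-fold higher in siZNF148. SRL, sarcalumenin, and SLN, the small inhibitor of the calcium pump, had the same pattern and were at least 1290-fold and 397-fold higher without that array.

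The number of calls in these muscle lists depended on the fit. In the fit of all 29 arrays 22 thick filament genes were called, and in a fit of only the 6 arrays 11 were, but 21 when siControl replicate 1 was left out of the 6. For thin filament genes the counts were 15, 5 and 15, for the Z-disc list 31, 19 and 32, and for excitation-contraction coupling 24, 15 and 24. With the methods' t-test after adjustment 2 thick filament, 0 thin filament, 6 Z-disc and 6 coupling genes passed, and with the replicate number as a block 0, 1, 5 and 6. In the fit of all 29 arrays the counts without siControl replicate 1 were 21, 15, 32 and 24. Within the slide that held siControl replicate 1 the median log2 difference was 1.49 for thick and 1.40 for thin filament genes, against 6.22 and 7.31 on slide 1 and 5.50 and 6.89 on slide 3. In bulk RNA, more cells that express a gene and more RNA of it per cell cannot be told apart.

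**Figure D4:**
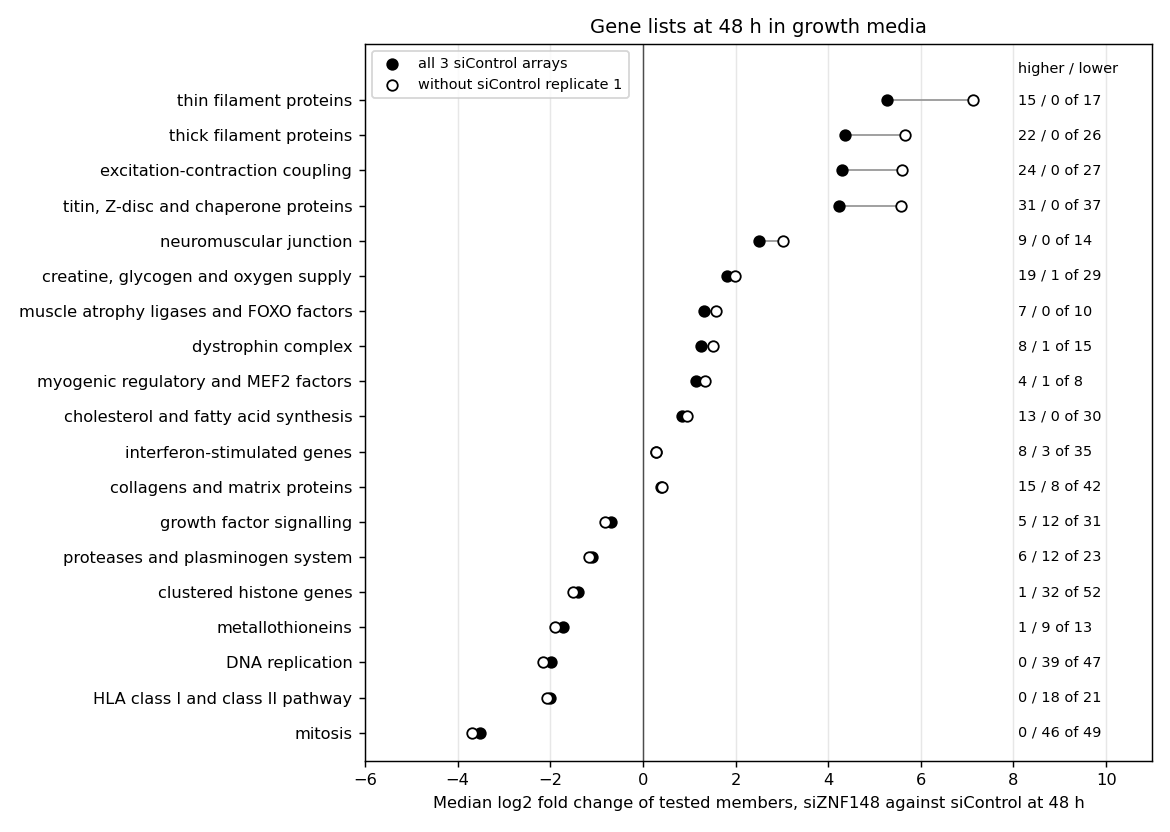
Median log2 difference of siZNF148 minus siControl at 48 h for each gene list, with all arrays and without siControl replicate 1; the number of tested genes and of genes called higher and lower stands beside each list. Muscle fibre lists lie above 4 and move up without that array, mitosis genes lie at -3.51, and the median over all genes is -0.05.

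At the neuromuscular junction 9 of 14 genes rose, with a median of 2.52 (3.02). CHRND, the delta subunit of the acetylcholine receptor, read 8.96, 5.50 and 5.57 in siControl and 10.51, 10.65 and 10.75 in siZNF148, and rose by 3.96 (5.10; adjusted p = 1.53e-06 in limma). CHRNG, the fetal gamma subunit above background on 2 of 3 siControl arrays, rose by 4.30 (5.49), and RAPSN, which clusters the receptor, by 1.83 (2.23). CHRNA1, the alpha subunit, had a log2 difference of 0.92 and passed only without siControl replicate 1, at 1.08. MUSK, the receptor kinase for agrin, had 0.83 and was not called.

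Energy supply genes of muscle rose in 19 of 29 cases and fell in 1, with a median of 1.82. ENO3, the muscle enolase, read 15.92, 9.58 and 9.68 in siControl and 17.45, 17.57 and 17.48 in siZNF148, and rose by 5.77 (7.87). MB, the oxygen carrier myoglobin, was above background on siControl replicate 1 alone in its group and rose by 5.65 (7.57), or at least 43.3-fold without that array. AMPD1, the AMP deaminase of muscle, rose by 6.59 (8.93) and PYGM, which breaks glycogen down, by 5.48 (7.26), and both were above background on 1 of 3 siControl arrays. GBE1, the branching enzyme that builds glycogen, was the member that fell, by 1.91.

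In the dystrophin complex 8 of 15 genes rose and 1 fell. DMD, dystrophin, rose by 2.46 (3.05). SNTB2, a syntrophin also found outside muscle, fell by 2.25. Adhesion and fusion genes were mixed, with 7 of 21 higher and 2 lower, against 11.7% and 12.2% of all genes, and a median of 0.14. NCAM1, a cell adhesion molecule of fusing myoblasts, read 12.85, 8.66 and 8.95 against 14.51, 14.40 and 14.52 and rose by 4.32 (5.67), and CDH15, M-cadherin, rose by 2.48 (3.13). CD9, a tetraspanin, fell by 1.88. MYMK, the fusion protein myomaker, had a log2 difference of 0.34 and was not called.

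Genes of cell division were lower, and on the log2 scale siControl replicate 1 lay close to its group, although on the linear scale its place of 0.353 was near that of the thin filament genes. It was the lowest siControl array for MKI67, CCNB1 and CDK1. Of 49 tested mitosis genes 46 fell and none rose, with a median log2 difference of -3.51, or -3.68 without siControl replicate 1, against 12.2% of all genes lower. The list medians were 10.90, 11.41 and 11.50 in siControl and 8.12, 7.96 and 7.68 in siZNF148. MKI67, the proliferation antigen Ki-67, read 10.69, 11.29 and 11.36 against 8.12, 7.79 and 7.72. The groups were far apart, and MKI67 fell by 3.24 (SE 0.21; adjusted p = 4.46e-11 in limma). CCNB1, cyclin B1, which drives entry into mitosis, read 13.37, 13.84 and 13.94 against 10.10, 10.22 and 9.96 and fell by 3.62 (adjusted p = 2.87e-15 in limma). CDK1, its kinase, read 10.90, 11.35 and 11.50 against 8.45, 8.38 and 8.09 and fell by 2.94.

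TOP2A, which untangles sister chromatids, fell by 3.53, and CCNA2, cyclin A2, by 2.93. PBK, a mitotic kinase, had the largest fall of the list, 4.66, and ECT2, which positions the cleavage furrow, the smallest that passed, 1.62. CCNB2, the partner cyclin whose promoter is printed, fell by 3.16. In the fit of only the 6 arrays, and in that fit without siControl replicate 1, 46 mitosis genes were lower as well. Within the 3 slides the median of the list was -3.85, -2.99 and -3.47.

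DNA replication genes fell in 39 of 47 cases, with a median of -1.99 and no rise. PCNA, the sliding clamp of DNA polymerase, read 13.20, 13.59 and 13.56 in siControl and 11.41, 11.30 and 11.22 in siZNF148, and fell by 2.14 (SE 0.08; adjusted p = 2.35e-14 in limma). RRM2, the regulated subunit of ribonucleotide reductase, fell by 3.86, TYMS, which makes dTMP, by 2.58 and MCM2, a subunit of the replicative helicase, by 1.88. MCM10, an initiation factor, was above background on all siControl arrays and on none of siZNF148, and was at least 13.1-fold lower. LIG1, the replicative ligase, had the smallest fall that passed, 1.01, and lost its call in 5 of the alternative settings.

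The clustered histone genes, which are transcribed in S phase, fell in 32 of 52 cases and rose in 1, with a median of -1.40. H2AC13 had the largest fall, at least 11.3-fold, with no siZNF148 array above background, and H2BC12 was the member that rose, by 1.13, with 0.36 on its other probe and no call without siControl replicate 2. Histone copies are near-identical, so that a probe may read more than 1 of them. Among 28 cell cycle regulators 8 fell and 3 rose, against 12.2% and 11.7% of all genes, so that the share that rose was near that of all genes. E2F1, which activates S phase genes, read 8.98, 9.51 and 9.51 against 6.04, 6.09 and 6.08 and fell by 3.27, and FOXM1, which activates mitotic genes, fell by 3.23. CDK4, which the line also carries as a transgene, fell by 1.00 on a probe that was not tied to either copy. CDK4 was close to the limit and lost its call in 4 of the alternative settings.

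CDKN1C, the CDK inhibitor p57, was the regulator that rose most. It read 15.70, 11.56 and 11.44 in siControl and 17.11, 17.08 and 17.07 in siZNF148, so that siControl replicate 1 had a place of 0.752 towards siZNF148 on log2 values and of 0.37 on linear values. CDKN1C rose by 4.18 (SE 0.64; adjusted p = 1.1e-05 in limma), and by 5.58 without siControl replicate 1. It was not called with the replicate number as a block or in the methods' t-test after adjustment. CDKN1A, the inhibitor p21, had a log2 difference of 0.51, CCND1, cyclin D1, -0.79 and MYC -0.90, and none of them was called. Of 23 tested p53 targets 9 fell and 1 rose: PERP, a membrane protein of that response, had the largest fall, 2.73, and BTG2, an antiproliferative factor, was the member that rose, by 1.34.

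Antigen presentation genes were lower as a list, with 18 of 21 down and none up and a median of -2.0. CIITA, the master activator of class II genes, read 9.06, 9.61 and 9.82 in siControl and 3.96, 5.20 and 3.79 in siZNF148, where 1 of 3 arrays was above background. CIITA fell by 5.18 (adjusted p = 2.18e-07 in limma), but its other probe had a log2 difference of -0.46. CD74, the class II chaperone, read 7.54, 8.13 and 7.85 against 4.84, 5.05 and 5.07 and fell by 2.85. B2M, the shared light chain of class I, fell by 1.17.

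Metallothioneins, small proteins that bind zinc and copper, fell in 9 of 13 cases. MT1E read 17.02, 17.47 and 17.34 in siControl and 13.74, 13.72 and 13.71 in siZNF148, and fell by 3.56 (SE 0.10; adjusted p = 1.99e-16 in limma). MT2A fell by 1.52 and MT1X by 1.72. Members of the family are near-identical in sequence, so that a probe may read several of them. The member that rose was SLC30A1, a zinc exporter and not a metallothionein, at 1.08, and it did not pass without siControl replicate 1, at 0.95.

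The largest falls of genes above background on every array were spread over several kinds. ACTG2, the enteric smooth muscle actin, read 12.55, 12.86 and 13.10 in siControl and 7.58, 7.30 and 7.39 in siZNF148. ACTG2 fell by 5.41 (SE 0.15; adjusted p = 2.78e-16 in limma), the most among them. CRYBG1 fell by 4.70, CBR3, a carbonyl reductase, by 4.65, CPEB1, which binds polyadenylation elements, by 4.63, SSTR1, a somatostatin receptor, by 4.48 and APLN, the peptide apelin, by 4.43. PBK and KIF14, a mitotic kinesin that fell by 4.55, were also among the 10 largest falls.

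Smooth muscle and actin genes had no common direction, with 4 of 22 higher and 5 lower, against 11.7% and 12.2% of all genes, and a median of -0.02 that became positive when arrays were scaled to their 75th percentile. ACTA2, the vascular smooth muscle actin, rose by 2.29 (2.79), and MYH11, the smooth muscle myosin above background on 1 of 3 siControl arrays, by 4.26 (5.76). TGF-beta ligands and targets were mixed too, with 6 of 25 higher and 7 lower. MSTN, myostatin, an inhibitor of muscle growth, was above background in siZNF148 only and was at least 2.51-fold higher, or at least 2.22-fold without siControl replicate 1. TGFBI and CCN2, targets of the pathway, had log2 differences of -0.33 and 0.63 and were not called.

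In the matrix 15 of 42 genes rose and 8 fell. COL1A1, a fibrillar collagen chain, read 15.30, 13.43 and 13.31 in siControl and 16.45, 16.31 and 16.54 in siZNF148 and rose by 2.42 (3.07), and COL5A3, above background on 2 of 3 siControl arrays, rose by 4.96 (6.62). LOX, which cross-links collagen, fell by 2.96 and FN1, fibronectin, by 1.02. FN1 was close to the limit and lost its call in 4 of the alternative settings. Of 23 proteases and inhibitors 12 fell and 6 rose, with a median of -1.1. MMP1 and MMP2, which cut collagen and gelatin, fell by 2.15 and 1.60, and MMP11, another member of that family, rose by 3.84 (4.90). SERPINB4, a protease inhibitor, was at least 8.04-fold lower, with no siZNF148 array above background, and TIMP4, an inhibitor of metalloproteinases above background on 2 of 3 siControl arrays, rose by 3.35 (4.14).

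Growth factor genes fell in 12 of 31 cases and rose in 5. EREG, a ligand of the ERBB family of receptors, read 6.79, 7.05 and 7.36 in siControl, was not well above background on any siZNF148 array and was at least 6.99-fold lower. HBEGF, a ligand of the same receptor, rose by 2.85 (3.45), FOSL1, a target of ERK signalling, fell by 2.98, and FGFR4, an FGF receptor of muscle, rose by 1.48. In the IGF system 7 of 15 rose and 2 fell. IGF2, an autocrine growth factor of muscle, read 18.10, 16.45 and 16.52 against 18.63, 18.63 and 18.67 and rose by 1.62 (2.16). The binding proteins IGFBP3 and IGFBP5 rose by 3.03 (3.81) and 4.2 (5.52), IGFBP5 from 1 of 3 siControl arrays above background, and IGFBP4 fell by 1.68.

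In the Notch pathway 5 of 13 genes rose and 3 fell. NOTCH3, a receptor that holds satellite cells in check, read 13.46, 11.13 and 11.09 in siControl and 14.91, 14.94 and 14.90 in siZNF148 and rose by 3.02 (3.81), and NRARP, a feedback inhibitor above background on 1 of 3 siControl arrays, rose by 4.32 (5.57). DLL3, a ligand above background on 1 of 3 siZNF148 arrays, fell by 2.88. Cytokine genes were mixed, with 8 of 24 lower and 6 higher: CSF3 was at least 2.47-fold lower, with -0.04 on its other probe, and CCL20 rose by 3.42 (4.21), while IL6 and CCL2 had log2 differences of -0.78 and -0.81. Interferon-stimulated genes rose in 8 of 35 cases and fell in 3, against 11.7% and 12.2% of all genes. Without siControl replicate 1 the counts were 9 and 7, against 12.9% and 14.1%. ISG15, a ubiquitin-like modifier, rose by 1.81 and MX1, an antiviral GTPase, by 1.48, while TRIM22 fell by 1.91.

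Cholesterol and fatty acid synthesis genes rose in 13 of 30 cases with no fall and a median of 0.85. HMGCS1, at the entry of the mevalonate pathway, read 9.65, 8.58 and 8.47 in siControl and 10.87, 10.85 and 10.81 in siZNF148 and rose by 1.95. SQLE, which commits squalene to sterols, rose by 1.17. In the list of atrophy ligases and FOXO factors 7 of 10 rose and none fell. TRIM63, the ubiquitin ligase MuRF1, read 10.69, 5.22 and 4.78 against 12.37, 12.55 and 12.55 and rose by 5.59 (7.49), and FBXO32 and FOXO1 rose by 1.14 each. MUSTN1, a nuclear protein of muscle and bone and no ligase, was among the 7 and is named after its values were seen.

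The same knockdown was read at 24 h, and each time point had its own siControl arrays. At 24 h 2.46% of genes were higher and 3.08% lower. The muscle fibre lists had 24 h medians near 0, with -0.07 for thick and -0.03 for thin filament genes, and no gene of either list was higher. The effect at 48 h exceeded that at 24 h for 20 of 26 thick and 15 of 17 thin filament genes, against 10.3% of all genes with an effect that differed upward. Without siControl replicate 1 the counts were 22 and 15, against 11.7% of all genes. MYOG and MEF2C had 24 h differences of -0.06 and 0.13, and their effects differed between the times by 4.12 (adjusted p = 0.000646 in limma) and 4.18 (adjusted p = 0.00124 in limma). MYOD1 was already higher at 24 h, by 1.13, and the test of the difference between the times gave an adjusted p of 0.440 in limma. CDKN1C rose by 3.36 at 24 h (adjusted p for the difference between the times = 0.55 in limma). All 24 h arrays lay on a slide of their own and came from subconfluent cells, so that slide, confluence and time cannot be told apart.

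The cell cycle lists were on the other side of 0 at 24 h. The median of the mitosis genes was 0.49 at 24 h, with 2 of 49 higher, and that of the DNA replication genes was 0.73, with 6 of 47 higher. Of all genes 2.46% were higher at 24 h. The effect at 48 h lay below that at 24 h for 47 of 49 mitosis and 40 of 47 replication genes, against 10.4% of all genes. TYMS rose by 1.1 at 24 h and fell by 2.58 at 48 h, and CCNA2 rose by 1.04 and fell by 2.93. The clustered histone genes had a 24 h median of 0.75, with 15 of 52 higher, and 37 of them were lower in effect at 48 h.

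At 96 h in growth media, with 2 siControl and 3 siZNF148 arrays, 12.3% of genes were higher and 12.4% lower. The thick and thin filament medians were 5.31 and 4.65 at 96 h. With all arrays no thin filament gene differed in effect between 96 h and 48 h, where 3.11% of all genes differed upward and 1.90% downward. Without siControl replicate 1, where these shares were 3.45% and 3.54%, the 48 h effect was larger for 9 of 17 thin filament genes. Mitosis genes fell further at 96 h, with a median of -4.81, and 27 of 49 had a lower effect than at 48 h, or 25 without siControl replicate 1. Interferon-stimulated genes had a median of 3.69 at 96 h, and the effect of 34 of 35 was higher than at 48 h with and without that array. MX1 had a log2 difference of 7.39 at 96 h and ISG15 one of 6.04. ACTG2 was lower by less at 96 h, with a log2 difference of -1.33, which differed from its 48 h effect (adjusted p = 1.16e-10 in limma).

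In differentiation media at 48 h, 15.1% of genes were higher and 17.3% lower. The methods add this media 2 days after transfection, so that the time since transfection may differ from that of the growth media arrays, and time and media cannot be told apart. The contractile lists were higher there too, with medians of 4.6 for thick and 4.20 for thin filament genes. With all arrays 1 of 26 thick filament genes had a larger effect in differentiation media and 1 a smaller, against 8.13% and 9.07% of all genes. Without siControl replicate 1, against 8.29% and 10.3% of all genes, the counts were 1 and 10. The mitosis median was -0.05 in differentiation media, and for 46 of 49 genes the effect lay above that in growth media. CDK1 was higher by 1.08 in differentiation media and lower by 2.94 in growth media, a difference of 4.02 (adjusted p = 1.26e-10 in limma). DNA replication genes differed in the same direction in 32 of 47 cases and clustered histone genes in 28 of 52. CDKN1C, which rose in growth media, had a log2 difference of 0.18 in differentiation media (adjusted p for the difference between media = 0.00142 in limma), and NOTCH3 had -0.64 (adjusted p = 5.03e-06 in limma). Antigen presentation genes were lower in both media, with 20 of 21 lower in differentiation media and a median of -2.82.

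**Figure D5:**
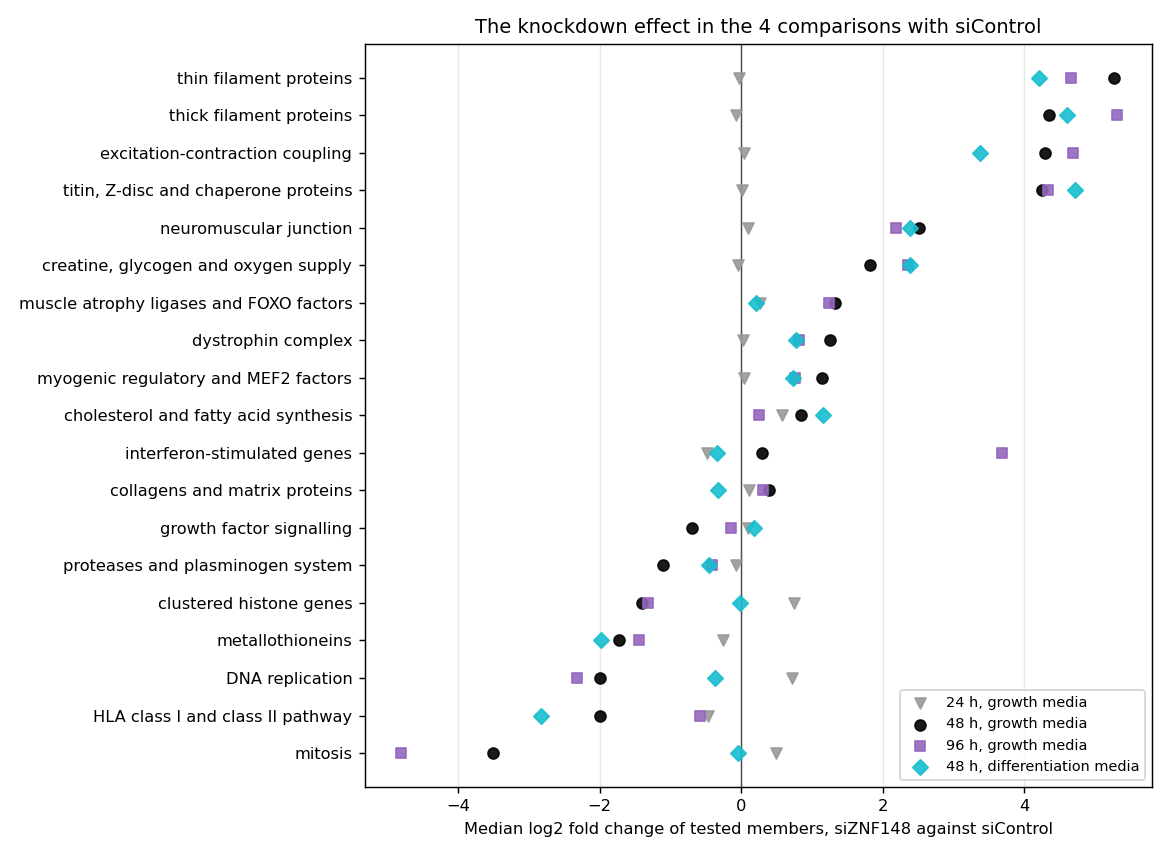
Median log2 difference of siZNF148 minus siControl for gene lists in 4 comparisons: 24 h, 48 h and 96 h in growth media and 48 h in differentiation media, each against its own siControl arrays. Thick and thin filament lists lie near 0 at 24 h and above 4 in the other comparisons, mitosis genes lie at -3.51 at 48 h and at -4.81 at 96 h in growth media but at -0.05 in differentiation media, and interferon-stimulated genes reach 3.69 at 96 h alone.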

How the data were processed

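RNA from LHCN-M2 cells was hybridized to 29 1-colour Agilent arrays, of which 6 form the comparison. Per the file headers, the deposited spot intensity values were made with Agilent Feature Extraction 10.7.3.1, which subtracts background and fits each spot. The authors also deposited log2 values of the same arrays, quantile normalized from background-subtracted signal, which served as an alternative. Here the processed intensity was set to log2, control and outlier-flagged spots were dropped, spots were averaged per probe, and arrays were quantile normalized. A probe was kept when 2 or more arrays read it well above background (38714 probes). A model of 10 group means over the 29 arrays was fitted with limma 3.58.1 in R 4.3.3, with Benjamini-Hochberg adjustment over all probes kept, and each gene was represented by its brightest tested probe. Probes were named through RefSeq accessions (31104 probes, 22439 genes, of which 18398 were tested); hg19 stands in the headers of 14 arrays, and the other 15 give no build. A call needed an adjusted p under 0.05 and more than 2-fold change. "At least" folds set the bright group against the lowest signal well above background. The number of arrays limits the precision.

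Groups came from the labels. The members and lists were chosen with earlier results of these data known. Named genes were ZNF148, anchors of each list, the largest called rise and fall of each list, and the 10 largest rises and falls among called genes above background on every array with groups that did not overlap; others are said to be chosen after their values were seen, as are the absent cell type markers. On simulated data for the 48 h comparison (38157 probes), 67% of 100 probes changed by 1.5 on the log2 scale and 90% of 100 changed by 3 were recovered, and 6 unchanged probes were called. Few probes were changed there, while 2153 genes were higher and 2247 lower in the real comparison. These rates may therefore not hold for the real comparison. Alternatives were scaling, background correction, filters, array weights, slide and replicate blocks, the methods' t-test and leaving out each array. Some named genes are not reported here.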

Additional observations from a re-analysis of the deposited data

Results flagged for a closer look

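The knockdown effect at 48 h in growth media differed from that in the other comparisons, by a test of the difference itself in limma. Between 48 h and 24 h, 1888 genes had a higher and 1907 a lower effect at 48 h. Between 96 h and 48 h, 573 genes had a higher and 349 a lower effect at 96 h. Between the media, 1495 genes had a higher and 1669 a lower effect in differentiation media. Among named genes, CCNA2 and TYMS passed the threshold in opposite directions at 24 h and 48 h, and their effects differed by -3.98 and -3.68 on the log2 scale. CDK1 passed in opposite directions in the 2 media at 48 h, with a difference of 4.02. Between 48 h and 24 h slide and confluence go with time, so that these cannot be told apart. Between the media, time since transfection may go with media, which cannot be told apart either. The 96 h arrays in growth media came from confluent cells, as at 48 h, and lay on slides 1 and 3, which also held 48 h arrays. Both 96 h siControl arrays lay on slide 3.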

How the results depend on the processing

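With normexp background correction 1401 genes were higher and 1449 lower at 48 h, and 554 differed between 96 h and 48 h, against 2153, 2247 and 922; the cause was not tested. Deviations of same-numbered arrays correlated at -0.0479, -0.0363 and -0.146, and those of arrays on the same slide at 0.00481, 0.11 and 0.105. These values gave no sign of pairing by replicate number but cannot exclude it. Sample titles, which were used, and sample descriptions number the siZNF148 samples of 48 h in growth media differently. In a fit of only the arrays compared with the replicate number as a block, 1324 genes were higher and 2038 lower. The block left 0 genes that differed between 96 h and 48 h in limma (1127 at an unadjusted p under 0.05), against 767 without it (1232 unadjusted). Leaving out each array in turn gave 1965 to 2381 genes higher, 2054 to 2587 lower, 3474 to 4368 that differed between 48 h and 24 h, 845 to 1286 between 96 h and 48 h, and 3084 to 3413 between the media, and ZNF148 differences from -2.24 to -1.90. Of 193 named genes 108 kept their call in every setting and none reversed, 67 lost their call with the block, 34 with only the 6 arrays, 65 in the methods' t-test after adjustment and 2 without siControl replicate 1. Without siControl replicate 1 a fit of only the other 5 arrays, chosen after seeing the data, gave 2310 higher and 2464 lower. The list medians of smooth muscle, endothelium and cartilage and bone genes changed sign under some settings.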
